A study of Mus musculus with 4 samples.

Results

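Receptors that bind lipoproteins or modified LDL were followed across 4 cultures of mouse aortic vascular smooth muscle cells. The members were 8 genes taken by symbol, namely Vldlr, Lrp1, Lrp8, Scarb1, Cd36, Msr1, Olr1 and Sort1, and every probe whose RefSeq transcript maps to one of them was used. They had 14 probes of 55679 on the array, and stood for 8 of 21367 genes that could be named.

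Cells take up lipoproteins by more than one route. Members of the LDL receptor family (Vldlr, Lrp1, Lrp8) are large surface proteins with cysteine-rich ligand-binding repeats, and they carry apolipoprotein E-rich particles and many other ligands into clathrin-coated pits. Scavenger receptors (Scarb1, Cd36, Msr1, Olr1) recognise HDL, fatty acids or oxidised and otherwise modified LDL, and in macrophages and smooth muscle cells of the artery wall they are known for their part in foam cell formation. Sort1 encodes sortilin, a sorting receptor of the VPS10P family that moves ligands between the Golgi, endosomes and the cell surface.

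The cells came from thoracic aortas of C57BL/6J mice (5 aortas for each genotype, as the labels read), and were wild type, WT, or knockout for LAMP-2A, L2AKO, the lysosomal receptor of chaperone-mediated autophagy. They were used at passages 12 to 16. All 4 groups spent 24 h in medium with 5% lipoprotein-deficient serum. The WT LDL and L2AKO LDL groups also received LDL at 150 µg/ml cholesterol with 0.1 U/ml bovine lipoprotein lipase, while for the WT control and L2AKO control groups the labels leave unclear if lipase was added. RNA pooled from a triplicate was hybridised to 1 array per group, so the values compare 4 pools, with no spread between cultures, no test and no p-value. The labels give neither the age of the mice nor the extent of the deletion.

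Values are log2 processed signals minus the 75th percentile of the array, so 0 is the level that 75% of probes lie below. The 75th percentile ranged from 318.8 to 433.8 signal units over the arrays, and between 47.2% and 52.0% of probes were well above background. The L2AKO LDL array lay on slide 2 and the other 3 on slide 1. Slide and group therefore cannot be told apart in any difference that uses L2AKO LDL. Lamp2 differed between L2AKO and WT without LDL by -1.38 on one probe and 0.04 on the other, and which of them lies in the deleted part is not known here. Of 10 smooth muscle markers, 6 were well above background on each array, while Myh11, Lmod1 and Des, markers of contractile smooth muscle, were not on any. These markers went both ways in L2AKO without LDL: Acta2 (-0.76), Smtn (-0.995) and Actg2 (-1.73) were lower, Tagln (1.27) and Cnn1 (1.12) were higher. Synpo2 was at least 3.85-fold higher and Mylk at least 1.56-fold lower in background-subtracted signals. In the same comparison, 3 of 6 measured fibroblast markers were higher (Col3a1 most, 6.15) and 3 lower (Dcn most, -1.69). Of 5 mesothelial and epithelial markers, 1 was higher (Upk3b, 1.17) and 4 lower (Cdh1 most, -3.14). Of all genes, 15.2% were higher and 16.6% lower at 1.5-fold. The part of such differences between the lines in the receptor values was not tested.

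The start-site windows of Lrp1, Lrp8 and Olr1 are shown because these are the members that differed most between the groups. Each window runs from 250 bases before to 50 bases after an annotated gene start in RefSeq on GRCm38.p6, written 5′ to 3′ on the strand of the gene. The table held 8 such windows for 5 members, namely Cd36, Lrp1, Lrp8, Olr1 and Vldlr. Capitals mark a match, on either strand, to any of 5 motifs. The GC box was searched as GGGCGG and the AP-1 site, bound by Fos and Jun factors, as TGANTCA. The TATA box was searched as TATAAA, while the CCAAT box is spelled by its name. The sterol element, bound by SREBP factors, was searched as TCACNCCAC. These 5 were kept from 13 motifs after the matches had been seen, and of the other 8 only a loose CArG-like pattern (CC and GG with 6 free bases between) matched a window of a member (7 of 8 windows, and 73.3% of all windows).
Lrp1, chr10:127621099-127621398, minus strand: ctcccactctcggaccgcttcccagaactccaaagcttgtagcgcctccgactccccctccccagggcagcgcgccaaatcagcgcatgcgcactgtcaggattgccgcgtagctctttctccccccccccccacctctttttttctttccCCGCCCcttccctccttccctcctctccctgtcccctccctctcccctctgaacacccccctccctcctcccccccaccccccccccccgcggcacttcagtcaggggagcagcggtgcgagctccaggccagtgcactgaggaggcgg
Lrp8, the first of 3 windows, chr4:107802635-107802934, plus strand: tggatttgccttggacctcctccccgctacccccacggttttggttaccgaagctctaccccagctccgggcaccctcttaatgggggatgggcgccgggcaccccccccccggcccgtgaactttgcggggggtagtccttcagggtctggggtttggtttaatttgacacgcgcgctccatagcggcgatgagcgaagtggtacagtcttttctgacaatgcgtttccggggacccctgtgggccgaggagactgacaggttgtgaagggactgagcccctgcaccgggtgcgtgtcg
Olr1, chr6:129507116-129507415, minus strand: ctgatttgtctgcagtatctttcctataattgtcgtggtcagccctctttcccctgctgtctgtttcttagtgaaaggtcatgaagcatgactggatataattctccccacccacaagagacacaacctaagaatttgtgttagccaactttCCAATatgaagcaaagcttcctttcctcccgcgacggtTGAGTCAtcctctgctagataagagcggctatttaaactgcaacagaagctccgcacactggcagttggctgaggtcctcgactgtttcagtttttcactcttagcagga
The Lrp1 window held 1 GC box match beginning 99 bases before the start, printed as its reverse complement on this strand, and was 67.7% G and C against a median of 52.7% over all 32851 windows of the table. The Olr1 window held a CCAAT match beginning 98 bases before the start and an AP-1 match beginning 60 bases before it, and was 46.0% G and C. No motif matched in the Lrp8 window shown. The sterol element matched in none of the 8 member windows, and in 1.24% of all windows. The other motifs matched in 37.4% (CCAAT), 35.7% (GC box), 13.6% (TATA box) and 7.81% (AP-1) of all windows. A match is only a match of letters, and its absence says only that these letters are not in this window.

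Of the 8 members, Lrp1, Vldlr, Scarb1 and Sort1 were well above background on all 4 arrays. Lrp8 was so in WT alone and Olr1 in L2AKO alone, while Cd36 and Msr1 were not well above background on any array. Where a gene had several probes, its probe with the highest mean stood for it in counts, and the other probes are described beside it.

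**Figure D1:**
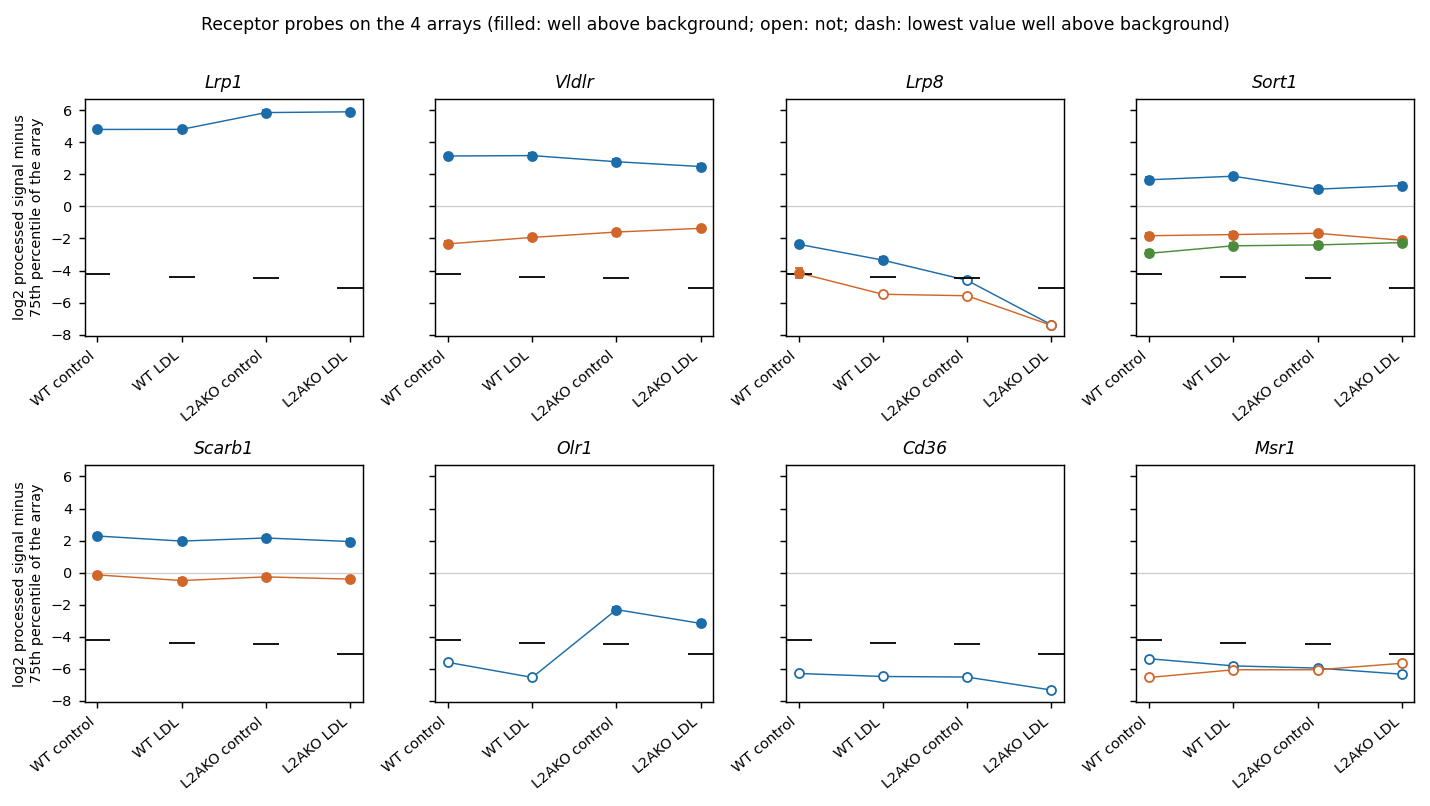
Normalised values of the 14 receptor probes (y axis: log2 processed signal minus the 75th percentile of the array) on the 4 arrays (x axis), 1 panel per gene and 1 colour per probe, with bars for the scanner software's error estimate. Filled points are well above background, open points are not, and short black lines mark the lowest value well above background on that array. Lrp1 lay at 4.80 and 4.81 in WT and at 5.86 and 5.90 in L2AKO, Olr1 was above background in L2AKO alone and Lrp8 in WT alone.

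Lrp1, an endocytic receptor for apolipoprotein E remnants, proteases and matrix proteins that also tempers PDGF signalling in smooth muscle, separated the genotypes and not the treatments. On its 1 probe (A_51_P193794) the WT cells read 4.80 without LDL and 4.81 with it, and the L2AKO cells 5.86 without LDL and 5.90 with it. Both L2AKO arrays lay above both WT arrays. Without LDL, on 1 slide, Lrp1 was 2.08-fold higher in L2AKO, a log2 difference of 1.05 ± 0.20, where the error is the scanner software's estimate for the spots and leaves out the spread between cultures. With LDL it was 2.14-fold higher (1.09 ± 0.20). Over the other scalings, a normexp background correction and the authors' deposited values, the difference without LDL ranged from 1.05 to 1.34. LDL moved Lrp1 by 0.01 ± 0.20 in WT and 0.05 ± 0.20 in L2AKO.

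Lrp1 was the only member at least 2-fold different between arrays on which it was above background. Among the other 12491 genes above background on all 4 arrays, Hlcs, which attaches biotin to carboxylases, Srp54a, a subunit of the signal recognition particle, and Ubr7 had the nearest profiles. Likeness was the Euclidean distance after each gene's own mean over the 4 arrays was subtracted, and it was 0.049, 0.051 and 0.057. Hlcs, for one, read -1.02, -1.02, -0.01 and 0.11 in the order WT control, WT LDL, L2AKO control and L2AKO LDL. With 4 points per gene, this describes the arrays only.

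Vldlr, a receptor for triglyceride-rich particles that acts beside lipoprotein lipase, had 2 probes with opposite genotype differences. The brighter probe (A_55_P2030524) read 3.15 (control) and 3.17 (LDL) in WT, and 2.79 (control) and 2.49 (LDL) in L2AKO. The dimmer probe (A_55_P2174836) read -2.34, -1.93, -1.60 and -1.37 in the same order. On the brighter probe both L2AKO arrays lay below both WT arrays, and on the dimmer probe both lay above. Without LDL the differences of L2AKO from WT were -0.36 ± 0.20 and 0.74 ± 0.22, and with LDL they were -0.68 ± 0.20 and 0.57 ± 0.21. Both probes are assigned to the same transcript record (NM_013703), and neither sign turned under any of the 6 other scalings and sources of values. Vldlr therefore has no single direction between the genotypes in these data.

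With LDL, Vldlr differed by 0.02 ± 0.20 in WT and -0.30 ± 0.20 in L2AKO on the brighter probe. The dimmer probe differed by 0.41 ± 0.23 and 0.23 ± 0.21. No value reached 1.5-fold, which is 0.585 in log2 units, except that the dimmer probe stood at 0.62 in WT with no scaling.

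Lrp8, the apolipoprotein E receptor 2 that shares the reelin ligand with Vldlr, was the member past 1.5-fold with LDL in WT, where it was lower. Its brighter probe (A_55_P2014555) read -2.36 in WT control and -3.35 in WT LDL, both well above background, and -4.61 and -7.38 in L2AKO control and L2AKO LDL, both below it. In WT the difference with LDL was -0.99 ± 0.26, or 1.98-fold lower. It was -0.54 in the authors' deposited values and -0.41 after normexp and quantile normalisation, both short of 1.5-fold, while on the brighter probe the sign was the same in all 6 alternatives. The second probe (A_52_P279687) was above background in WT control alone, at -4.15, and was at least 1.19-fold lower in WT LDL.

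Between the genotypes only a bound can be given for Lrp8, taken against the dimmest probe still well above background on the L2AKO array, or the probe's own value where higher. On the brighter probe L2AKO was at least 4.25-fold lower than WT in control cells and at least 3.31-fold lower in LDL cells. These bounds hold for background-subtracted signals only, since the same probe was 2.04-fold and 1.99-fold lower in the authors' deposited values, and 1.73-fold and 1.70-fold lower after normexp. The sign was the same in all 6 alternatives. The second probe was only bounded at 1.23-fold lower in L2AKO in control cells, and in LDL cells it was below background in both genotypes. In the authors' deposited values the second probe differed by -0.28 in control cells and -0.32 in LDL cells. The response of Lrp8 to LDL in L2AKO could not be measured, since both L2AKO arrays were below background. The processed signals of the brighter probe were 62.0 and 36.3 units in WT against 15.9 and 2.60 in L2AKO, so Lrp8 was dim throughout.

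Sort1 had 3 probes, all above background on every array, and their differences did not share a direction. The brightest (A_52_P590396) read 1.66 (control) and 1.89 (LDL) in WT, and 1.08 (control) and 1.30 (LDL) in L2AKO. On it both L2AKO arrays lay below both WT arrays, with differences of -0.585 ± 0.20 without LDL and -0.583 ± 0.20 with LDL, one on each side of the 1.5-fold line. The second probe (A_55_P2076683), assigned to another transcript record of the gene (NM_001271599), read -1.83, -1.76, -1.68 and -2.11 in the same order. The remaining probe (A_51_P517145), assigned to the same record as the brightest (NM_019972), read -2.93, -2.46, -2.40 and -2.26. Without LDL the second and the dimmest differed from WT by 0.15 ± 0.22 and 0.52 ± 0.25, opposite in sign to the brightest. With LDL the second stood at -0.36 ± 0.22 and the dimmest at 0.20 ± 0.22.

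LDL differences of Sort1 were short of 1.5-fold on every probe, except that the dimmest stood at 0.69 in WT with no scaling. The brightest probe was 0.23 ± 0.20 higher with LDL in WT and 0.23 ± 0.20 higher in L2AKO. The dimmest was 0.47 ± 0.25 and 0.15 ± 0.22 higher, and the second stood at 0.07 ± 0.22 and -0.44 ± 0.22.

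Scarb1, the HDL receptor that takes up cholesteryl esters and lets free cholesterol pass both ways, had the smallest range on its brightest probe among the 4 members measured everywhere. The brighter probe (A_55_P1954021) read 2.28 (control) and 1.97 (LDL) in WT, and 2.16 (control) and 1.94 (LDL) in L2AKO. The dimmer probe (A_55_P2088965) read -0.14, -0.50, -0.26 and -0.41. On both probes each LDL array lay below the control array of its genotype. In WT the differences were -0.32 ± 0.20 and -0.35 ± 0.21, and in L2AKO -0.22 ± 0.20 and -0.14 ± 0.21, all short of 1.5-fold, and the last was 0.01 with no scaling. Between the genotypes neither probe differed by more than 0.12, with or without LDL, and those signs turned with the scaling on all but the dimmer probe with LDL.

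Olr1, which encodes the oxidised LDL receptor LOX-1, was above background in L2AKO alone. Its 1 probe (A_51_P462192) read -2.31 in L2AKO control and -3.17 in L2AKO LDL, and -5.60 and -6.54, below background, in WT control and WT LDL. The processed signals were 78.7 and 48.2 units in L2AKO against 6.58 and 3.98 in WT. Olr1 was therefore at least 3.80-fold higher in L2AKO without LDL and at least 2.35-fold higher with LDL. As for Lrp8, the bounds depend on the background correction, and the authors' deposited values gave 2.43-fold and 2.02-fold, and normexp 1.92-fold and 1.70-fold, all higher in L2AKO. Within L2AKO it was 1.82-fold lower with LDL, a difference of -0.86 ± 0.24 taken across slides. That difference was -0.52 in the authors' deposited values and -0.40 after normexp and quantile normalisation, short of 1.5-fold in both.

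Cd36, a fatty acid translocase and receptor for oxidised LDL, read -6.29, -6.48, -6.52 and -7.33 on its 1 probe over the arrays in the order given for Hlcs. Msr1, the class A macrophage scavenger receptor, read -5.37 to -6.34 on one probe and -5.66 to -6.54 on the other. The lowest values well above background on these arrays ran from -5.08 to -4.23, so all 12 readings were below background and give no fold. Of 10 macrophage markers, 5 or 6 were well above background on each array, whereas Adgre1, Ptprc, Tyrobp and Fcgr1, which define macrophages and other leukocytes, were not on any. The summed signal of the 10 markers was 12090 and 12130 units in WT (control and LDL) and 13580 and 22210 in L2AKO. Divided by the 75th percentile of each array it was 37.9, 32.7, 34.9 and 51.2 in the same order, so only L2AKO LDL stood above WT control. Single markers went both ways between genotypes without LDL, with Cd68 at 1.85, Csf1r at 0.52, Itgam at -0.16, Cd14 at -0.63 and Aif1 at -1.33. Aif1 was below background in WT LDL and L2AKO LDL. Itgam, the brightest of the 10 on every array, was 0.80 higher with LDL in L2AKO and so weighs most in the sums. The part of these markers in the values of Olr1 was not tested. In pooled RNA, fewer cells with a transcript and less of it per cell cannot be told apart.

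**Figure D2:**
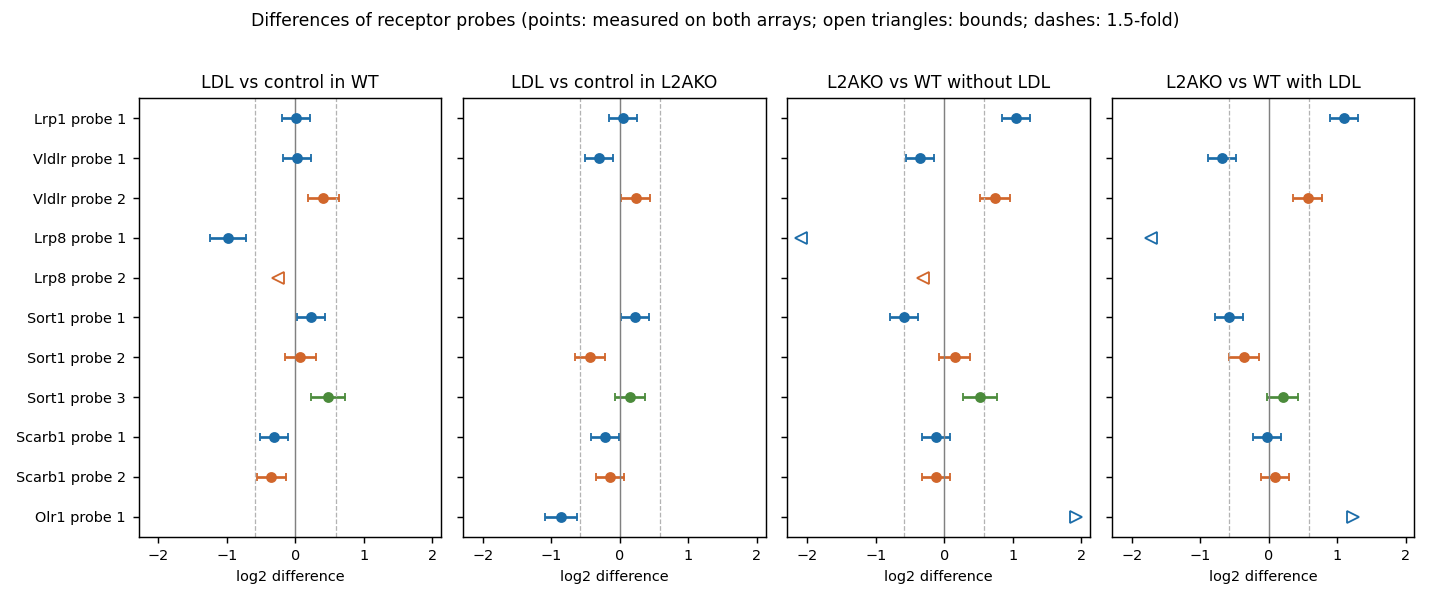
Log2 differences (x axis) of the 11 receptor probes above background on at least 1 array (y axis), 1 panel per comparison, with bars for the scanner software's error estimate and dashed lines at 1.5-fold. Open triangles are bounds for probes above background on 1 of the arrays only. Lrp1 stood at 1.05 and 1.09 between genotypes and within 0.05 of 0 for LDL, and Vldlr probes 1 and 2 lay on opposite sides between genotypes.

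Counted as genes, few members passed 1.5-fold. With LDL in WT, 0 of 5 measured members were at least 1.5-fold higher and 1 was lower (Lrp8), where 1.25% and 2.46% of all 12978 measured genes were. Their median difference was 0.01, against -0.05 for all genes. With LDL in L2AKO, 0 of 5 were higher and 1 was lower (Olr1), where 3.34% and 4.55% of 13008 genes were, with a median of -0.22 against -0.08. A member that is above background in 1 genotype alone enters only that genotype's count.

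Between genotypes without LDL, 1 of 4 measured members was higher in L2AKO (Lrp1) and 1 was lower (Sort1, at 1.50-fold), where 15.2% and 16.6% of 12594 genes were. The median was -0.24 against -0.01 for all genes. The call of Sort1 was lost in each of the 6 other scalings and sources of values. With LDL, 1 of 4 was higher (Lrp1) and 1 was lower (Vldlr, brighter probe, 1.61-fold), where 16.9% and 20.5% of 12936 genes were, with a median of -0.31 against -0.05. The call of Vldlr was lost with median scaling (-0.485), with no scaling (-0.455) and with the mean over its probes, which oppose each other. Lrp1 alone was past 2-fold, as 7.56% of genes were on its side without LDL and 8.29% with LDL. The share of higher calls among all calls at 1.5-fold moved with the scaling. It was 47.8% without LDL and 45.1% with LDL between genotypes, and 33.7% and 42.3% for LDL in WT and L2AKO, while with no scaling the same shares were 72.9%, 64.5%, 72.7% and 69.8%. With median scaling they were 56.1%, 61.9%, 33.6% and 62.0%. The comparisons share arrays, so they are not independent of each other. A share of 1 in 4 rests on 1 gene, so nothing about the receptors as a class is read from these counts.

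The LDL response in L2AKO minus that in WT stayed under 1.5-fold for the 4 members measured on all 4 arrays. Of 12492 genes, 4.77% passed 1.5-fold upwards and 3.99% downwards, so 54.5% of calls were upwards (74.8% with median scaling and 41.4% with no scaling). This difference of responses was 0.04 ± 0.29 for Lrp1, 0.10 ± 0.29 for Scarb1, 0.00 ± 0.29 for Sort1 and -0.32 ± 0.29 for Vldlr on their brightest probes, and those of Lrp1 and Sort1 took the other sign in at least 1 alternative. Of the remaining probes, the second of Sort1 had the largest value, -0.51 ± 0.31.

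For comparison with the treatment itself, 10 sterol-regulated genes were all lower with LDL in both genotypes, with medians of -2.27 in WT and -2.07 in L2AKO. The 3 largest differences in WT were those of Idi1 (-2.88), Fdps (-2.72) and Mvd (-2.71), all enzymes of the mevalonate pathway. The largest LDL difference among the 8 members, that of Lrp8 in WT, was smaller than each of the 10 in WT. This list is known to respond to LDL from earlier results of these data.

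Of 11 other genes of the LDL receptor family, 9 were measured for LDL in WT and none passed 1.5-fold. Of all genes, 1.25% were higher there and 2.46% lower. In L2AKO, 1 of 8 was higher with LDL (Lrp4, 0.95) and 1 lower (Ldlrad4, -0.66), where 3.34% and 4.55% of all genes were. Both fell short of 1.5-fold in an alternative (0.54 and -0.51). Without LDL, 2 of 7 were higher in L2AKO, Ldlrad4 at 1.12 and the Wnt co-receptor Lrp6 at 0.71, and none lower, beside 15.2% and 16.6% of all genes. Lrp2 (megalin) and Lrp3 were above background in WT alone, and in control cells L2AKO was at least 2.38-fold (Lrp2) and 2.14-fold (Lrp3) lower. Lrp4, an agrin receptor, was above background in L2AKO alone with a bound of at least 3.31-fold in control cells and 7.18-fold in LDL cells. As for Lrp8, the bounds of Lrp2, Lrp3 and Lrp4 hold for background-subtracted signals only. They were not recomputed in the alternatives.

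Among relatives of sortilin, Sorl1 (-0.996), Sorcs1 (-0.76) and Sorcs2 (-0.89) were lower in L2AKO without LDL, which makes 3 of 3 measured, where 16.6% of all genes were. In an alternative Sorcs1 stood at -0.31 and Sorcs2 at -0.38, short of 1.5-fold. They were 0.71, 0.72 and 0.79 higher with LDL in L2AKO, across slides, where 3.34% of all genes were past 1.5-fold, but Sorcs1 stood at 0.33 and Sorcs2 at 0.36 in an alternative. They stood at -0.02, 0.22 and -0.31 with LDL in WT. The genotype difference without LDL and the LDL difference in L2AKO share the L2AKO control array. Sorl1, Sorcs1 and Sorcs2 each had their lowest value on that array (0.10, -3.075 and -3.22). Between genotypes with LDL none of the 3 passed 1.5-fold, where 16.9% of all genes were higher and 20.5% lower. A second probe of Sorcs1 differed by 0.46 without LDL, on the other side, and by 0.11 with LDL in L2AKO. The difference of LDL responses was 1.10 for Sorcs2, with a range of 0.50 to 1.21 over the alternatives.

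Other scavenger receptors went both ways between the genotypes. Of 10 measured without LDL, 3 were higher in L2AKO, namely Colec12 (3.52), a class A scavenger receptor of vessels, Cd68 (1.85), a lysosomal glycoprotein that is also on the macrophage list, and Scarf2 (1.27). As many were lower, Scara5 (-2.92), a ferritin receptor, Stab1 (-1.47), a class H scavenger receptor, and Stab2 (-0.83, but -0.39 in an alternative). Of all genes, 15.2% were higher and 16.6% lower. With LDL, 4 of 10 were higher, Ssc5d (0.62) among them, and 2 lower, where 16.9% and 20.5% of all genes were. Colec12 stood at 3.50, Cd68 at 1.79, Scarf2 at 1.10, Scara5 at -1.74 and Stab1 at -1.68. Megf10, above background in L2AKO alone, had bounds of at least 2.87-fold in control cells and 4.07-fold in LDL cells. These bounds, too, hold for background-subtracted signals only. With LDL in WT, 2 of 10 were lower, Cxcl16 (-0.75), a chemokine that also binds oxidised LDL, and Stab2 (-0.66), and none was higher, where 2.46% and 1.25% of all genes were. In an alternative these stood at -0.53 and -0.36, short of 1.5-fold. In L2AKO, 2 of 12 were higher with LDL, Scara5 (1.26) and Stab2 (0.65), and 2 lower, Cxcl16 (-0.86) and Stab1 (-0.59), where 3.34% and 4.55% of all genes were. In an alternative Stab2 stood at 0.23 and Stab1 at -0.12, short of 1.5-fold, and Scara5 at 0.68. The response difference was 1.18 for Scara5 and 1.31 for Stab2, both across slides, with ranges of 0.60 to 1.29 and 0.585 to 1.41 over the alternatives.

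Among chaperones, adaptors and degraders of these receptors, 0 of 17 measured genes passed 1.5-fold with LDL in WT. In L2AKO 1 of 17 did (Dab1, 0.72, but 0.41 in an alternative). Of all genes, 1.25% were higher and 2.46% lower in WT, and 3.34% and 4.55% in L2AKO. Nothing about this list is therefore read from these counts. The chaperone Lrpap1 that escorts Lrp1 through secretion stood at 0.21 between genotypes without LDL and 0.45 with LDL on its brightest probe, and at -0.25 and -0.10 on another. Mylip, the ubiquitin ligase that degrades receptors of this family, was 0.51 higher with LDL in WT and 0.36 higher in L2AKO, both short of 1.5-fold. Between genotypes without LDL, 1 of 17 was higher in L2AKO and 2 were lower, where 15.2% and 16.6% of all genes were. The higher one was Gulp1 (0.80), an adaptor that binds the tail of Lrp1. The lower ones were Ap2s1 (-0.99), a clathrin adaptor subunit, and Ccdc22 (-0.81, but -0.52 with no scaling), part of a complex that recycles receptors. With LDL, 1 of 17 was higher (Gulp1, 0.68) and 1 lower (Ccdc22, -1.01), where 16.9% and 20.5% of all genes were. Ap2s1 stood at -0.42 there, short of 1.5-fold. Nothing about this list is read from these genotype counts either.

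Several ligands differed between the genotypes by more than Lrp1 did. Of 16 ligands and bridging proteins measured without LDL, 4 were higher in L2AKO and 2 lower, where 15.2% and 16.6% of all genes were. The higher ones held Thbs2 (3.41) and Apoe (3.04), the apolipoprotein that Lrp1, Lrp8 and Vldlr bind. Serpine2 (-4.62), a protease inhibitor cleared by Lrp1, and Thbs1 (-2.05), a matrix protein that binds Lrp1 and Cd36, were lower. With LDL these genes stood at 3.67, 3.28, -4.83 and -2.51. In both genotypes none of the measured ligands passed 1.5-fold with LDL (0 of 16 in WT and 0 of 15 in L2AKO). Of all genes, 1.25% were higher and 2.46% lower in WT, and 3.34% and 4.55% in L2AKO. Nothing about the ligands as a class is therefore read from these 2 counts, nor from the count between genotypes without LDL. Lpl, the lipoprotein lipase, differed with LDL by 0.035 in WT and -0.02 in L2AKO, while another probe of it read 0.51 in WT. Ntf3 was above background on 3 arrays and was at least 2.50-fold lower with LDL in L2AKO, across slides. This bound holds for background-subtracted signals only and was not recomputed in the alternatives.

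**Figure D3:**
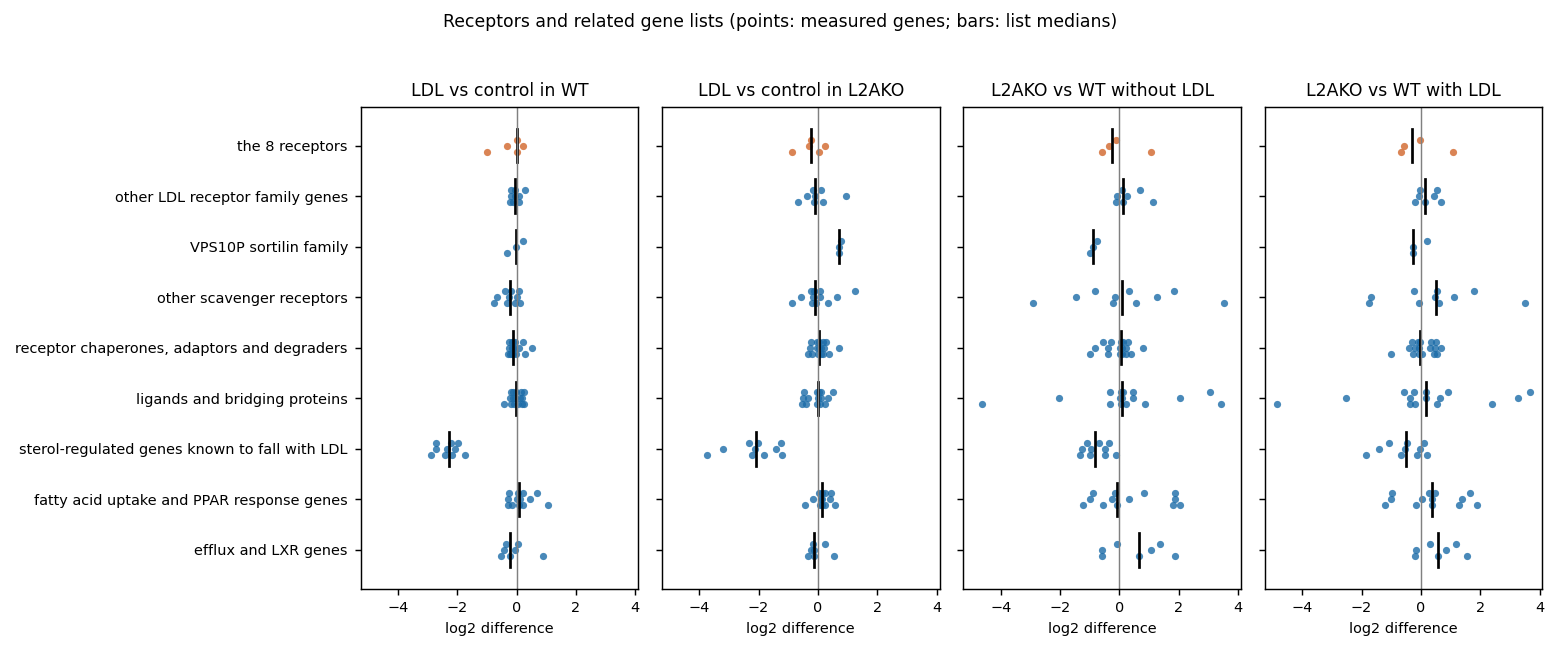
Log2 differences (x axis) of measured genes in the receptor set (orange, brightest probe per gene) and in 8 related gene lists (blue), 1 panel per comparison, with a black bar at each list's median. The sterol-regulated list lay between -2.88 and -1.72 with LDL in WT, left of every receptor, while ligands reached from -4.62 to 3.41 between genotypes without LDL.

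No direction of a related-list gene measured on the arrays compared and past 2-fold turned under the 6 other scalings and sources of values. Bounds were recomputed in the alternatives for Lrp8 and Olr1 only. For these genes 3 other probes were measured with LDL between genotypes and 2 without LDL, and each lay at least 1.5-fold on the side of its gene.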

How the data were processed

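Messenger RNA was measured with 1 Agilent mouse 8x60K array (1 colour, Cy3) for each of 4 groups. The authors deposited scanner files with spot intensity on a linear scale, made with Agilent Feature Extraction 10.7.3.1 and already background-subtracted, per the file headers. Their deposited value table holds a linear signal with medians of 57.4 to 57.6, and how it was scaled between arrays stays unknown. RMA and oligo are named in the submitters' processing notes.

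Control and outlier spots were left out and spots of a probe averaged as log2 values, which gave 55679 probes. The 75th percentile was subtracted from each array. Probes were named through their RefSeq accession in a table of GRCm38.p6, which matched 28330 of them to 1 gene. The files name mm9, so gene coordinates are given only with the printed sequences. A gene counted as measured where its brightest probe was marked well above background on both arrays compared (all 4 for the difference of responses). A gene above background on 1 array has a bound, set against the dimmest probe well above background on the other array, or the gene's own value there if higher.

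Errors are the scanner software's estimates for a spot, combined over the arrays compared. The SD of repeated spots had a median no higher than 0.054 (log2). The number of arrays, 1 per group, limits the precision. The members, the 8 gene lists and the 6 marker lists were chosen with earlier results of these data known. The text names all 8 members with every probe, list genes past 2-fold in a comparison, the 3 largest of the sterol list, and the 3 nearest profiles of a member past 2-fold. List genes between 1.5-fold and 2-fold, those with a bound, and Lpl, Mylip and Lrpap1 were added after their values were seen. One list gene past 2-fold is not reported here. Marker genes with values were also chosen after their values were seen.

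The alternatives were 4 other scalings, normexp (offset 50) with quantile normalisation, the authors' deposited values, averaging all probes of a gene, and 3 filters on dim probes. The differences behind the bounds of Lrp8 and Olr1 and the share of higher calls under each setting were computed after the main values had been seen. The calling step was tested on simulated data with noise taken from repeated spots within an array. That check covers the working of the step only, since this noise leaves out the spread between cultures. R 4.3.3, limma 3.58.1, Python 3.11.15, numpy 2.4.6, pandas 2.3.3 and matplotlib 3.10.9 were used.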

Additional observations from a re-analysis of the deposited data

Results flagged for a closer look

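The values below have opposite signs in a pair of groups. With 1 array in each group, the gap between the signs was not tested. Sort1 on its second probe stood at 0.07 with LDL in WT (-0.05 in the authors' deposited values) and -0.44 in L2AKO, and at 0.15 without LDL and -0.36 with LDL between genotypes. Vldlr on its brighter probe stood at 0.02 with LDL in WT and -0.30 in L2AKO. Scarb1 on its dimmer probe stood at -0.12 between genotypes without LDL and 0.09 with LDL. One value of each pair lay within its scanner error of 0.20 to 0.22, and both did for Scarb1.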

How the results depend on the processing

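Of 42 probe differences of the members, 34 kept their sign in all 6 alternatives that change scaling, background or source, and 8 took another sign in at least 1, none of them past 1.5-fold. Of 252 such values 224 moved by less than the scanner error and 28 by more, 21 of these with no scaling. Without scaling the all-gene median stood at 0.17 (LDL in WT), 0.08 (LDL in L2AKO), 0.28 (genotype without LDL) and 0.18 (with LDL). Scaling by probes above background on all arrays put 60.1% of LDL calls in L2AKO and 43.8% in WT on the higher side, normexp 20.9% and the authors' values 23.4% of those in WT. The counts at 1.5-fold rest on 1 gene each and moved as follows. The any-array and all-array filters ask for a probe well above background on 1 or on all 4 arrays. With LDL in WT, the count of lower members (1) was 0 with normexp, with the authors' deposited values and with the all-array filter, and 2 with no filter and with the any-array filter. The median was 0.22 with no scaling and -0.25 with no filter. With LDL in L2AKO, the count of lower members (1) was 0 after normexp, in the authors' values and with the all-array filter, 3 with no filter and 2 with the any-array filter. Between genotypes without LDL, the count of lower members (1) was 0 with median scaling, scaling over probes above background on all arrays, quantile normalisation, no scaling, normexp, the authors' values and the mean over probes, 3 with no filter and 2 with the any-array filter. The count of higher members (1) was 2 with no filter and 2 with the any-array filter. The median was 0.049 with no scaling and 0.11 with the mean over probes. With LDL, the count of lower members (1) was 0 with median scaling, no scaling and the mean over probes, 2 in the authors' values and with the any-array filter, and 3 with no filter, while that of higher members (1) was 2 with both of these filters. The median was -0.078 with no scaling, -0.55 with no filter and -0.014 with the mean over probes. In the difference of LDL responses, the count of lower members (0) was 2 with no filter and 1 with the any-array filter. The 2 looser filters count 8 and 6 members, some of them below background. The cause of the other moves was not tested. No paired analysis was possible because each group had 1 array.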

Other observations

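Some genes of fatty acid uptake and the PPAR response also differed between the lines. Of 13 fatty acid uptake and PPAR response genes, 5 were at least 1.5-fold higher in L2AKO without LDL and 3 lower, where 15.2% and 16.6% of all genes were, with a median of -0.09 against -0.01 for all genes. Angptl4 (2.06), an inhibitor of lipoprotein lipase, Pparg (1.86), the nuclear receptor known to drive Cd36 in other cells, and the fatty acid binding proteins Fabp4 (1.87) and Fabp3 (1.80) were higher, while Fabp5 was lower (-1.24). Cd36 itself was below background on all 4 arrays. With LDL, Angptl4 stood at 1.40, Pparg at 1.67, Fabp4 at 1.30, Fabp3 at 1.90, Fabp5 at -1.01 and Acsl1, an acyl-CoA synthetase, at -1.19. Fabp4 is on the adipocyte marker list too, of which Adipoq, Lep, Plin1 and Cidec were not well above background on any array, while Retn was on all 4 and stood at 1.51 without LDL and 1.55 with LDL between genotypes. The summed signal of the list was 450.6 and 789.7 units in WT (control and LDL) and 1915 and 2266 in L2AKO. Divided by the 75th percentile of each array it was 1.41, 2.13, 4.92 and 5.22 in the same order. Fabp4 was the brightest of the list on every array, so the sum largely repeats Fabp4 itself. The part of this list in these values was not tested. With LDL in WT, Angptl4 (1.06) and Fabp4 (0.69) were higher and none of the 13 was lower, where 1.25% and 2.46% of all genes were.

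Of 7 measured efflux and LXR genes, 4 were at least 1.5-fold higher in L2AKO without LDL, namely the cholesterol exporter Abca1 (1.86), the oxysterol receptor Nr1h3 (1.37), and the lysosomal cholesterol transporters Npc1 (1.05) and Npc2 (0.67), and the phospholipid transfer protein Pltp was lower (-0.59, but -0.31 with no scaling and 0.32 with LDL). Of all genes, 15.2% were higher and 16.6% lower. With LDL, Abca1 stood at 1.19 and Nr1h3 at 1.54. A second probe of Nr1h3 differed by 1.35 without LDL and by 1.26 with LDL.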
